A study of Mus musculus with 3 samples.

Results

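The nuclear lamina and LINC complex genes were taken as 10 genes, Lmna, Lmnb1, Lmnb2, Lbr, Emd, Tmpo, Sun1, Sun2, Syne1 and Syne2, chosen by name as parts of the lamina and the LINC complex. All 10 were among the 24421 genes of the count data, and all 10 passed the minimum mean of 10 reads that 16670 genes passed. Their expression was measured by RNA-Seq in undifferentiated mouse embryonic stem (ES) cells of EL16.7, a female line (F2:129S1/CastEiJx 129S1). The study compared wild type cells transduced with a control shRNA to cells in which the nucleoporin NUP153 was depleted by shRNA-1 (KD-1) or shRNA-2 (KD-2), with 1 library each. All cells received lentivirus, were grown with LIF and serum on γ-irradiated DR4 mouse embryonic fibroblasts as feeders, and were selected with puromycin at 2 μg/ml for 2 days. Total RNA was depleted of ribosomal RNA before library preparation, and no step that separated ES cells from feeders is described in the labels. With 1 library per condition there is no spread between replicates, and a difference between libraries cannot be told apart from a difference between cultures.

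The nuclear lamina is a meshwork of A-type and B-type lamins under the inner nuclear membrane. Integral membrane proteins such as LBR, emerin and LAP2 tie chromatin to it. SUN proteins of the inner membrane and nesprins of the outer membrane bind each other across the nuclear envelope and form the LINC complex, which couples the lamina to the cytoskeleton. A-type lamins are known to be scarce in ES cells and abundant in fibroblasts and other mesenchymal cells, whereas B-type lamins are present in nearly all cells. NUP153 is a component of the nuclear basket of the pore and is known to bind lamins.

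The control library held 72344726 reads on genes, KD-1 85258834 and KD-2 69839336. Read counts were scaled between libraries by their upper quartiles and are called scaled reads. Scaled reads of Nup153 itself, the targeted gene, were 30116 in control, 15172 after KD-1 and 11164 after KD-2, or 0.504 and 0.371 times the level in control. Of 10 markers of undifferentiated ES cells, all were detected in each library, with 38259, 41588 and 33073 scaled reads on Pou5f1.

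Of the 10 genes, KD-2 differed from control by more than 1.5-fold at 4, and KD-1 at 1. In KD-2, Lmna and Sun2 were higher and Lbr and Tmpo lower than in control. In KD-1, Lmna was lower than in control. Among all 16670 genes, 27.3% lay past this fold in KD-2 against control (17.1% higher and 10.2% lower) and 14.2% in KD-1 against control (8.63% higher and 5.62% lower). The KD-1 split of 1438 higher and 937 lower was 1216 and 1146 with the size factors of DESeq2, and 479 and 549 among genes that averaged 100 reads or more, as all 10 members did. The median log2 fold change of the 10 genes was -0.11 in KD-2 and -0.07 in KD-1, beside -0.02 and 0.02 for all genes. The knockdowns were compared to the same control library, so their values are given side by side and are not independent of each other. The fold of 1.5 equals 0.58 on the log2 scale, and Lmna in KD-1 (-0.60) and Tmpo in KD-2 (-0.59) lay just past it, whereas Syne1 in KD-2 (0.53) and Sun2 in KD-1 (-0.52) lay just short of it. Under scaling by library totals the all-gene split in KD-2 moved from 2847 higher and 1700 lower to 3942 higher and 820 lower. The split of the 10 genes in KD-2 moved from 2 higher and 2 lower to 3 higher and 0 lower. With TMM and with the size factors of DESeq2 it was 2 higher and 1 lower.

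**Figure D1:**
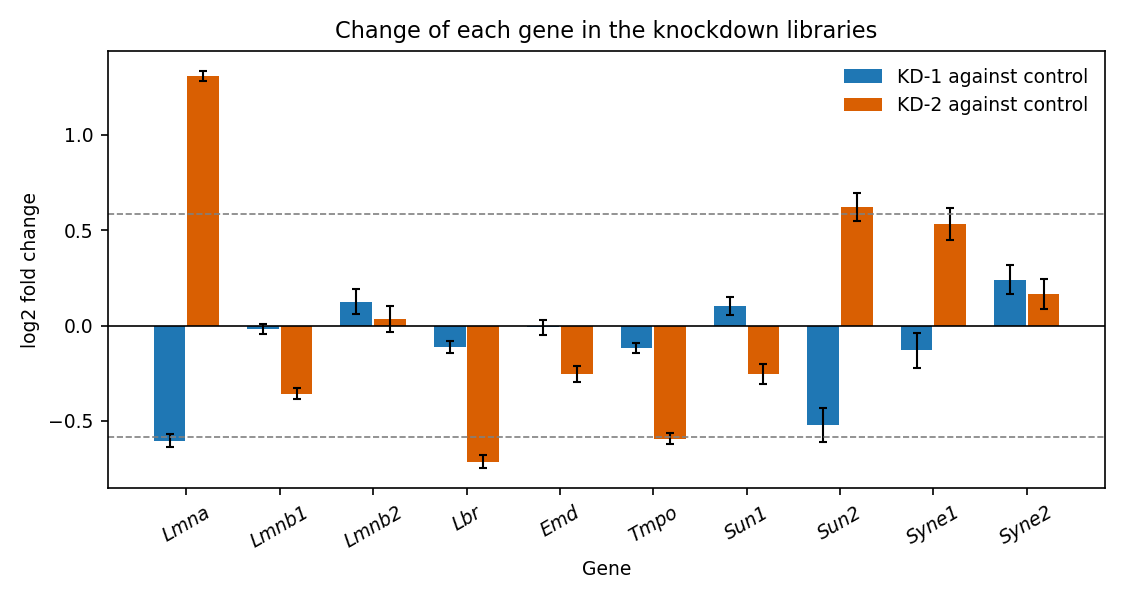
The log2 fold change of each gene in KD-1 and KD-2 against control, with exact 95% counting intervals as error bars and dashed lines at a fold of 1.5. Lmna lies at -0.60 in KD-1 and at 1.31 in KD-2, and Lbr and Tmpo lie past the lower line in KD-2 alone.

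Below are the promoter sequences of the 4 genes past 1.5-fold in KD-2 against control, shown so that genes that were higher and genes that were lower can be compared in sequence. Each is the 250 bases before a RefSeq transcript start (GRCm38.p6), read 5′ to 3′ on the minus strand on which all 4 genes lie. For Lmna and Tmpo, which have more than 1 RefSeq start here, the start farthest upstream is shown. The Lmna, Tmpo and Lbr windows lie inside the GENCODE gene spans given below, downstream of their 5′ ends. The Sun2 window lies directly before its span. Capitals mark matches on either strand to 4 motifs. The GC box was searched as GGGCGG and the box bound by NF-Y as CCAAT. The AP-1 site was searched as TGANTCA, where N is any base. The cell cycle homology region, a repressor element of mitotic genes, was searched as TTTGAA. Matches may overlap, as they do for 2 GC boxes in Sun2 and for the AP-1 and TTTGAA matches in Lbr.
Lmna, chr3:88503353-88503602: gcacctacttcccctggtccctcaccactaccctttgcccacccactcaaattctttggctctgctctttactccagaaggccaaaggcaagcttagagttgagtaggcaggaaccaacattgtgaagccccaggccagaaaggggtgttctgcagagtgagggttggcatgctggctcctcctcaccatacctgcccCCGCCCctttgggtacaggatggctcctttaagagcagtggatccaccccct
Sun2, chr15:79742537-79742786: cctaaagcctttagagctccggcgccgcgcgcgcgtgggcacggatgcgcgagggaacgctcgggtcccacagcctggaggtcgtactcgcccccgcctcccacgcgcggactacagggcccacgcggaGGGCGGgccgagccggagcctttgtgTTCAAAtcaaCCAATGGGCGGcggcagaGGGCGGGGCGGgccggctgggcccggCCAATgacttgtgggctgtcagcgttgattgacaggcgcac
Lbr, chr1:181842402-181842651: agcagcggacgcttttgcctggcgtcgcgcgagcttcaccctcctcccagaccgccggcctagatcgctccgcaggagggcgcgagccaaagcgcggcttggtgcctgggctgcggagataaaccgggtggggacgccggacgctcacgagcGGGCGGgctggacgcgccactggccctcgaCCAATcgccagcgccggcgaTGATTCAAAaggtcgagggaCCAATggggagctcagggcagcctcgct
Tmpo, chr10:91171620-91171869: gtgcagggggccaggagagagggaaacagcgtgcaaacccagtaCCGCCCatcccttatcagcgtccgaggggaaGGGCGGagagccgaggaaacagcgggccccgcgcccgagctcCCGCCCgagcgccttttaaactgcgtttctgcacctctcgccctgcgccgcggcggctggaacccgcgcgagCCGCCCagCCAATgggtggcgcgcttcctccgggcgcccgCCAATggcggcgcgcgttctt

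The Lmna window held 1 GC box and none of the other letters, at a GC content of 56.4%. The Sun2 window held 4 GC boxes, 2 CCAAT boxes and 1 TTTGAA. The Tmpo window also held 4 GC boxes and 2 CCAAT boxes, and the Lbr window 1 GC box, 2 CCAAT boxes, 1 AP-1 match and 1 cell cycle homology region, at GC contents of 70.8% for Sun2, 70.8% for Tmpo and 69.6% for Lbr. In these windows CCAAT boxes were present in Sun2, which was higher in KD-2, as well as in Lbr and Tmpo, which were lower. The other start of Lmna (chr3:88493313-88493562) had 1 CCAAT box and no GC box, and the other start of Tmpo (chr10:91170551-91170800) had neither box and 1 cell cycle homology region. Of 32851 RefSeq windows of the same length, 32.7% held a GC box, 33.8% a CCAAT box, 6.75% the AP-1 letters and 16.0% TTTGAA. The SRF CArG box was also searched, was in none of the 4 windows, and was in 1.47% of all windows. These matches describe the letters of the windows, not binding. For Lmnb1 no sequence is shown.

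Lmna encodes lamins A and C, the A-type lamins, and lies at chr3:88480147-88509956 (GRCm38, minus strand). It had 17322 scaled reads in control, 11407 after KD-1 and 42931 after KD-2. KD-2 was the highest library and KD-1 the lowest, with control between them, which was also the order of the summed fibroblast markers given with the marker lists. The log2 fold change was -0.60 for KD-1 (exact 95% counting interval -0.64 to -0.57) and 1.31 for KD-2 (1.28 to 1.34), or 0.659 and 2.48 times control. KD-2 exceeded KD-1 by 3.76-fold. Among all 16670 genes, Lmna stood at percentile 5.32 in KD-1 and at percentile 97.9 in KD-2. Both differences stayed past 1.5-fold under all 4 scalings of the libraries, with ranges of -0.67 to -0.60 and 1.31 to 1.47. Reads were counted per gene, so lamin A and lamin C could not be separated.

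Lmnb1 and Lmnb2 encode the B-type lamins, lamin B1 and lamin B2, and neither passed 1.5-fold in any comparison. Lmnb1 (chr18:56707813-56753424, plus strand) had 21400 scaled reads in control, 21125 after KD-1 and 16714 after KD-2. Its log2 fold change was -0.02 for KD-1 (-0.05 to 0.01) and -0.36 for KD-2 (-0.39 to -0.33). Over the 4 scalings these values ranged from -0.08 to -0.02 and from -0.36 to -0.20. Lmnb2 (chr10:80901203-80918245, minus strand) was the less abundant of the pair, with 3620, 3946 and 3711 scaled reads in control, KD-1 and KD-2. Its log2 fold changes were 0.12 for KD-1 (0.06 to 0.19) and 0.04 for KD-2 (-0.03 to 0.10), with ranges over the scalings of 0.06 to 0.12 and 0.04 to 0.19. Between the knockdowns the sign of Lmnb2 depended on the scaling, from -0.09 to 0.08.

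**Figure D2:**
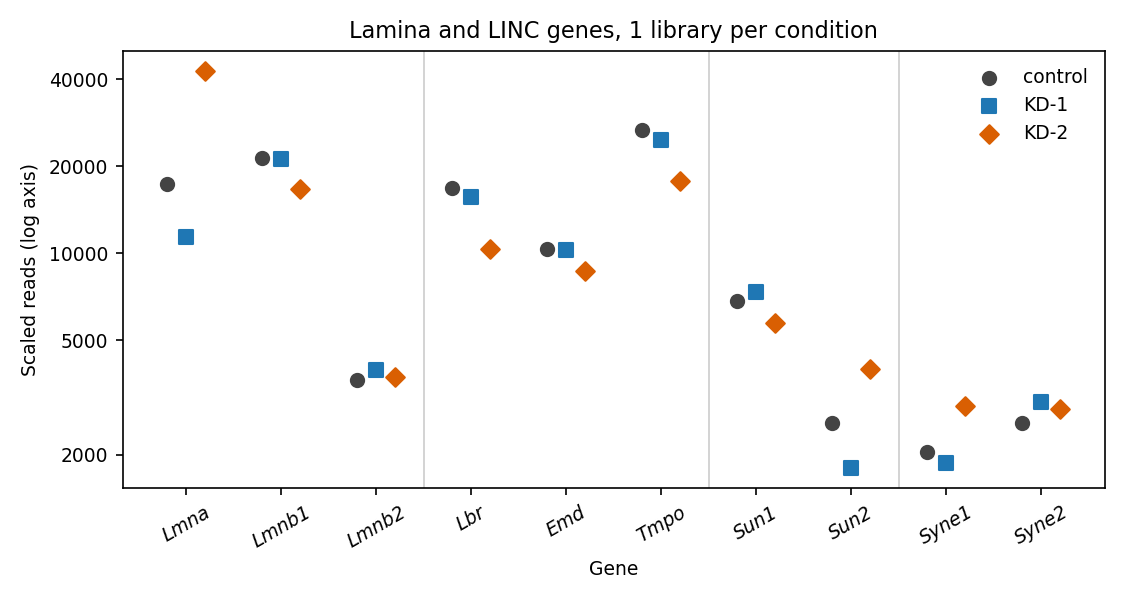
Scaled reads of the 10 genes in the control, KD-1 and KD-2 libraries on a log axis, with 1 point per library and gray lines between lamins, inner membrane proteins, SUN proteins and nesprins. The Lmna points spread from 11407 to 42931 scaled reads, whereas the Lmnb2 points lie between 3620 and 3946.

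The share of lamin reads that fell on Lmna does not depend on the scaling of the libraries. Lmna took 40.9% of the 39184 reads on the 3 lamin genes in control (exact Clopper-Pearson 95% interval 40.4 to 41.4). It took 31.3% of 39552 reads in KD-1 (30.8 to 31.7) and 67.8% of 63143 reads in KD-2 (67.4 to 68.1). Lmnb1 held the largest share in control (50.5%) and KD-1 (57.9%), whereas Lmna did in KD-2, where Lmnb1 held 26.4%. Lmnb2 held 8.55%, 10.8% and 5.86%. Per kb of exon, the share of Lmna was 26.9% in control, 19.5% after KD-1 and 53.0% after KD-2, with the libraries in the same order.

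**Figure D3:**
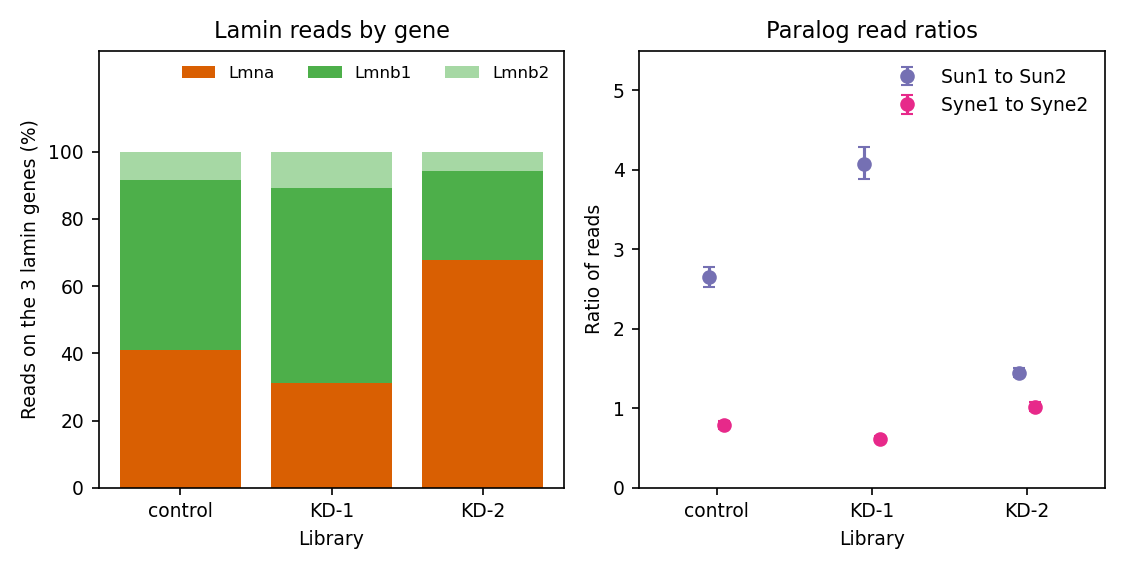
Left, percent of reads on the 3 lamin genes that belong to each gene, by library. Right, ratio of Sun1 to Sun2 reads and of Syne1 to Syne2 reads by library, with exact 95% counting intervals as error bars. The Lmna share is 31.3% for KD-1 and 67.8% for KD-2, and the Sun1 to Sun2 ratio is 4.08 for KD-1 and 1.45 for KD-2.

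The 3 genes of inner nuclear membrane proteins were all lower in KD-2 than in control, and Lbr and Tmpo were lower by more than 1.5-fold. Lbr (chr1:181815335-181843046, minus strand) encodes the lamin B receptor, which binds B-type lamins and heterochromatin and is also a sterol reductase. It had 16880 scaled reads in control, 15605 after KD-1 and 10300 after KD-2. KD-1 lay close to control and KD-2 below both. The log2 fold change was -0.11 for KD-1 (-0.14 to -0.08) and -0.71 for KD-2 (-0.75 to -0.68), or 0.610 times control in KD-2. The KD-1 value ranged from -0.18 to -0.11 over the scalings. Under library totals the KD-2 value was -0.55 and no longer past the fold.

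Tmpo (chr10:91147571-91181315, minus strand) encodes the LAP2 proteins, which carry a LEM domain that binds the chromatin protein BAF. Its scaled reads numbered 26821 in control, 24707 after KD-1 and 17774 after KD-2, in the same order as those of Lbr. The log2 fold change was -0.12 for KD-1 (-0.14 to -0.09) and -0.59 for KD-2 (-0.62 to -0.57). This value lay at the edge of the fold and was -0.55 with TMM, -0.56 with the size factors of DESeq2 and -0.44 with library totals, none of them past it. The KD-1 value ranged from -0.18 to -0.12. The LAP2 isoforms, of which some are membrane proteins and LAP2α is nucleoplasmic, could not be separated in counts per gene.

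Emd (chrX:74254687-74261548, plus strand) encodes emerin, another LEM domain protein, which binds lamins and BAF. Its scaled reads were 10351 in control, 10289 after KD-1 and 8668 after KD-2. The log2 fold change was -0.01 for KD-1 (-0.05 to 0.03) and -0.26 for KD-2 (-0.30 to -0.21). Over the 4 scalings these values ranged from -0.07 to -0.01 and from -0.26 to -0.10.

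Sun1 and Sun2 encode the inner membrane part of the LINC complex in somatic cells, and they differed from control in opposite directions in each knockdown. Sun1 (chr5:139200637-139249840, plus strand) had 6828 scaled reads in control, 7324 after KD-1 and 5727 after KD-2. Its log2 fold changes, 0.10 for KD-1 (0.05 to 0.15) and -0.25 for KD-2 (-0.31 to -0.20), were both within 1.5-fold. They kept their sign under all 4 scalings but were 0.04 for KD-1 with the size factors of DESeq2 and -0.10 for KD-2 with library totals. Sun2 (chr15:79724070-79742536, minus strand) had 2575, 1795 and 3956 scaled reads. KD-1 was thus the highest library for Sun1 and the lowest for Sun2, and KD-2 the reverse. The log2 fold change of Sun2 was -0.52 for KD-1 (-0.61 to -0.43) and 0.62 for KD-2 (0.55 to 0.69), or 1.54 times control in KD-2. With the size factors of DESeq2 the KD-1 value was -0.59 and past the fold.

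The ratio of Sun1 to Sun2 reads, which needs no scaling between libraries, was 2.65 in control (exact 95% counting interval 2.53 to 2.78), 4.08 for KD-1 (3.88 to 4.29) and 1.45 for KD-2 (1.39 to 1.51). Per kb of exon the ratios were 1.89, 2.91 and 1.03. The intervals did not overlap between any of the libraries, although they cover the counting of reads and not the spread between cultures.

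Syne1 and Syne2 encode nesprin-1 and nesprin-2, giant spectrin-repeat proteins of the outer membrane whose KASH domains bind SUN proteins and whose long forms bind actin. Syne1 (chr10:5020917-5551482, minus strand) had 2042 scaled reads in control, 1867 after KD-1 and 2953 after KD-2. Its log2 fold changes were -0.13 for KD-1 (-0.22 to -0.04) and 0.53 for KD-2 (0.45 to 0.62), the latter past 1.5-fold under library totals (0.69) and within it under the other scalings. The KD-1 value ranged from -0.20 to -0.13. Syne2 (chr12:75818134-76110926, plus strand) had 2579, 3047 and 2894 scaled reads. Both of its log2 fold changes were above 0, at 0.24 for KD-1 (0.16 to 0.32) and 0.17 for KD-2 (0.09 to 0.24), with ranges over the scalings of 0.17 to 0.24 and 0.17 to 0.32. The ratio of Syne1 to Syne2 reads was 0.792 in control (0.745 to 0.841), 0.613 for KD-1 (0.579 to 0.648) and 1.02 for KD-2 (0.969 to 1.07). Both genes have many short and long transcripts, and their exons cover 40.5 kb and 26.7 kb, so reads per gene do not show which nesprin isoforms were present.

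When KD-2 was compared directly to KD-1, 4 of the 10 genes lay past 1.5-fold, beside 30.1% of all 16670 genes (16.1% higher and 13.9% lower). Lmna (log2 fold change 1.91, 1.88 to 1.94), Sun2 (1.14, 1.06 to 1.22) and Syne1 (0.66, 0.58 to 0.74) were higher in KD-2, and Lbr was lower (-0.60, -0.63 to -0.56). The first 3 stayed past the fold under all 4 scalings, whereas Lbr did so only with upper quartiles (-0.54 to -0.43 with the others). The all-gene split of 2691 higher and 2322 lower moved to 3172 and 1555 with the size factors of DESeq2 and to 3525 and 1229 with library totals. The remaining members had values between -0.48 (Tmpo) and -0.07 (Syne2), and the sign of Syne2 depended on the scaling (-0.07 to 0.09). The median of the 10 genes was -0.17, beside -0.12 for all genes.

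Levels were compared between genes as RPKM, in which reads are divided by exon length in kb and by the reads on all genes. In control, Lmnb1 was the most abundant at 92.4 RPKM, followed by Emd (52.6), Lbr (45.4), Lmna (38.0) and Tmpo (31.2). Sun1 (11.5), Lmnb2 (10.8) and Sun2 (6.08) followed, with Syne2 (1.23) and Syne1 (0.645) lowest. The lamin and inner membrane genes other than Lmnb2 thus stood above the LINC genes. In KD-1 the order of the first 3 was kept, with Lmnb1 at 90.7, Emd at 52.0 and Lbr at 41.7 RPKM, and Lmna at 24.8 RPKM stood below Tmpo at 28.6. In KD-2 Lmna was first at 105 RPKM, above Lmnb1 at 80.5. Neighbours in these orders have no spread between samples to be set against, and RPKM of long genes with short transcripts, such as Syne1, is lowered by the exon length used.

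A list of 29 other nuclear envelope and lamina genes was examined, of which 27 passed the minimum mean of 10 reads, with Sun3 (at most 6 reads in a library) and Sun5 (at most 1) below it. KD-2 differed from control by more than 1.5-fold at 4 of the 27 and KD-1 at 1, beside 27.3% and 14.2% of all genes. These shares include genes of low counts. Of the 4547 genes past the fold in KD-2, 2852 averaged 100 reads or more, as did 1028 of the 2375 in KD-1. The envelope counts of 4 and 1 were the same at that minimum. Their medians were -0.13 in KD-2 and -0.12 in KD-1.

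The largest difference among them in KD-2 was at Plec, which encodes plectin, a linker of intermediate filaments that binds nesprin-3. Plec had 12922 scaled reads in control, 11733 after KD-1 and 35768 after KD-2, and its log2 fold changes were -0.14 for KD-1 and 1.47 for KD-2. Syne3, which encodes nesprin-3, the outer membrane partner of plectin, had 1434, 888 and 3086 scaled reads. Its log2 fold changes were -0.69 for KD-1 (-0.81 to -0.57) and 1.11 for KD-2 (1.01 to 1.20), both past 1.5-fold. For Plec and Syne3, as for Lmna and Sun2, KD-1 was the lowest library and KD-2 the highest. Plec shares 205 bp of exon with Parp10 on the same strand, which had 297, 214 and 475 reads.

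Cbx5 and Cbx3 encode HP1α and HP1γ, heterochromatin proteins of the family that binds LBR, and were lower in KD-2. Cbx5 had 31436 scaled reads in control, 30089 after KD-1 and 17915 after KD-2, at log2 fold changes of -0.06 and -0.81. Cbx3 had 50002, 42858 and 31834 scaled reads, at -0.22 and -0.65, and its KD-2 value was -0.49 and within the fold under library totals. KD-1 lay nearer to control than KD-2 did for both genes, as for Lbr and Tmpo.

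Genes that process lamins and the torsins lay within 1.5-fold of control in both knockdowns. Zmpste24, the protease that matures prelamin A, had log2 fold changes of -0.17 for KD-1 and -0.15 for KD-2, the latter at 0.01 with library totals. None of the 5 lamin processing genes was past the fold, nor was either of the 2 torsins, with Tor1a, an ATPase of the envelope lumen, at -0.15 and -0.19. Banf1, which encodes BAF, was at -0.03 and -0.25. The 9 other inner membrane genes were within the fold with upper quartiles, with KD-2 values from -0.27 (Ankle2) to 0.56 (Lemd2). Lemd2 was past the fold in KD-2 under the other scalings, at 0.60 with TMM, 0.59 with the size factors of DESeq2 and 0.71 with library totals.

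Markers of fibroblasts, the cell type of the feeders, also differed between the libraries. All 12 were below control in KD-1, with 7 past 1.5-fold, a median log2 fold change of -0.73 and a range of -2.01 (Postn) to -0.08 (Fn1). All 12 were above control in KD-2, with 10 past 1.5-fold, a median of 0.80 and a range of 0.37 (Thy1) to 1.08 (Pdgfrb). Their summed reads were 0.335% of reads on genes in control, 0.228% after KD-1 and 0.651% after KD-2, and none of the 12 was at 0 in any library. Most of the 261938 summed scaled reads in control were on Fn1 (89886), Vim (78594) and Col3a1 (59031). Lmna, Sun2, Syne1, Syne3 and Plec had their lowest library in KD-1 and their highest in KD-2, as these markers did. In KD-2, Sun2 (0.62) and Syne1 (0.53) lay within the range of the 12 markers, and Lmna (1.31), Syne3 (1.11) and Plec (1.47) above it. In KD-1, Lmna (-0.60), Sun2 (-0.52), Syne1 (-0.13), Syne3 (-0.69) and Plec (-0.14) all lay within the wide range of the markers. Syne1 and Plec lay nearer to control than every marker but Fn1, the next being Pdgfra (-0.27). Lbr (-0.11), Tmpo (-0.12) and Cbx3 (-0.22), which were lower than control in KD-2, also lay within this range. The part of feeder RNA in these differences was not tested, and in bulk RNA fewer cells of a type and less RNA per cell cannot be told apart.

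The medians of ES cell and of proliferation markers lay below 0 in KD-2. Of 10 ES cell markers, 2 were past 1.5-fold lower in KD-2 (Zfp42 at -0.70 and Tdgf1 at -0.61), beside 10.2% of all genes. The 1 past it higher was Utf1 (1.17), beside 17.1% of all genes. In KD-2, 7 of these markers were below control and 3 above it (Utf1, Esrrb at 0.22 and Klf4 at 0.15), with a median of -0.30. Their summed reads were 0.474% of reads on genes in control, 0.510% after KD-1 and 0.388% after KD-2. The 4 proliferation genes had a median log2 fold change of 0.03 for KD-1 and -0.59 for KD-2, where Top2a (-0.76) and Ccnb1 (-0.62) were past the fold. Values of ES cell and proliferation markers are given with upper quartiles only. Whether the calls of Zfp42, Tdgf1, Top2a and Ccnb1 hold under the other scalings is not shown here. The KD-2 values of Lbr (-0.71), Tmpo (-0.59), Cbx5 (-0.81) and Cbx3 (-0.65) thus lay beside an ES cell marker median of -0.30 and a proliferation median of -0.59, and the part of cell composition or cycling in them was not tested. Of 6 endoderm markers, 4 passed the minimum of 10 reads, and the summed scaled reads of these 4 were 480 in control, 568 after KD-1 and 752 after KD-2. Most of these reads were on Dab2 (390, 463 and 606). Gata6 had the same order of libraries (49.7, 58.1 and 105), whereas Gata4 was below control in both knockdowns (23.8, 18.4 and 20.1). Sox17 was highest in KD-1 (16.2, 28.6 and 20.1).

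To ask which of these genes differed in both knockdown libraries alike, KD-1 and KD-2 were compared as a group to control with the quasi-likelihood test of edgeR, whose 1 residual degree of freedom comes from the difference between KD-1 and KD-2. None of the 10 genes was called, with 0 of 10 at an unadjusted p under 0.05 and 0 of 10 by the Wald test of DESeq2 with or without adjustment. Of all 16670 genes, 0.006% passed an FDR of 0.05 and 1.27% an unadjusted p under 0.05 in edgeR, beside 0.012% and 0.468% in DESeq2. The smallest p of the 10 was 0.197 for Lmna (edgeR, group log2 fold change 0.65, FDR 1.00), which was lower than control in 1 knockdown and higher in the other. The next was Lbr at a p of 0.394 in edgeR (group log2 fold change -0.38), lower than control in 2 of 2 knockdown libraries. Nup153 itself reached an unadjusted p of 0.00881 in edgeR but, like the 10 genes, was not called at an FDR of 0.05 by either test. A p above 0.05 does not show that expression was the same.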

How the data were processed

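Libraries of rRNA-depleted total RNA were made from ES cells with control shRNA, shRNA-1 (KD-1) or shRNA-2 (KD-2) and were grouped by these labels. Reads of 50 bp were trimmed (Trim Galore 0.4.1) and mapped to mm10 (TopHat2 2.1.1), and the authors deposited raw counts per gene without normalization. The submitters' processing notes name HTSeq, the study's methods featureCounts with a mapping quality above 30. The strand counted is not given in the sources used here. The counts hold 5 summary lines, left out here, with 21.5% to 24.1% of reads on no feature and 1.45% to 1.65% ambiguous.

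Upper-quartile scaling was computed over the 21164 genes with a read (edgeR 4.0.16, R 4.3.3). The 16670 genes whose mean reached 10 reads were compared on log2(scaled reads + 0.5), which understates changes of low genes. With 1 library per condition a fold above 1.5, as in the study's methods, stands in for a test, and the study's dispersion from spike-ins was not used here. Intervals (95%, exact binomial) cover counting error only. Both knockdowns were also compared to control with the quasi-likelihood test of edgeR, Benjamini-Hochberg adjusted over 16670 genes, and the Wald test of DESeq2 1.42.0. These tests were checked on simulated data in which both knockdown libraries had the same changes. The check therefore does not cover knockdowns that differ from each other, as KD-1 and KD-2 do. Exon lengths and positions came from GENCODE M21 (GRCm38), where 23376 genes matched by symbol and 678 by an older symbol, and promoters from RefSeq (GRCm38.p6). Python 3.11.15, numpy 2.4.6, pandas 2.3.3, scipy 1.17.1 and matplotlib 3.10.9 were used.

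Alternatives were TMM, DESeq2 size factors, library totals, a pseudocount of 5, a fold of 2, minimum means of 0 and 100 reads, and values per kb. The genes named were the 10 members, Nup153, envelope genes past the fold in either knockdown, Zmpste24, Banf1, Tor1a and Cbx5. Marker genes and other envelope genes were named after their values were seen. They were ends of a range, genes near or past the fold, or genes that show the spread within a list or family. The members and lists were chosen with earlier results of these data known.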

Additional observations from a re-analysis of the deposited data

Results flagged for a closer look

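For 4 of the 10 lamina and LINC genes, KD-1 and KD-2 lay on opposite sides of control, each with a counting interval that excludes 0. The same held for 19.1% of all 16670 genes, and for 30.8% of the 5437 genes whose mean reads were at least those of the lowest of the 10. With the size factors of DESeq2, a scaling compared here after seeing the data, 3 of the 10 were left, without Sun1, beside 17.8% and 26.5%. With TMM and with library totals the 4 were the same genes. Both knockdowns share the control library. The log2 difference of KD-2 from KD-1 was 1.91 for Lmna, 1.14 for Sun2 and 0.66 for Syne1, each below control with KD-1 and above it with KD-2. For Sun1 it was -0.35, with KD-1 above control and KD-2 below. Of the 27 other envelope genes, 7 lay on opposite sides (25.9%), namely Syne3 at 1.80, Plec at 1.61, Irag2, Icmt, Tmem43, Tor1aip1 and Tor1b, of which Syne3 and Plec were past 1.5-fold from control in either knockdown. The genes not past it were named after their values were seen. With 1 library per knockdown these differences were not tested.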

How the results depend on the processing

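Directions against control were the same for all 10 genes under upper-quartile, TMM, DESeq2 and library total scaling, and a pseudocount of 5 changed the count of calls neither among the 10 genes nor in the envelope list. Library totals moved the all-gene median in KD-2 from -0.02 to 0.14, so that Lbr (-0.55) and Tmpo (-0.44) were read against a higher median. With DESeq2 size factors 2 of the 10 genes and 2 envelope genes were past 1.5-fold in KD-1. With a fold of 2, the 10 genes gave 0 in KD-1, 1 in KD-2 (Lmna) and 2 in KD-2 against KD-1, and the envelope list 0 for KD-1 and 2 for KD-2. All genes past the fold numbered 770, 1212 and 1839 with a fold of 2, 5298, 7461 and 8080 with no filter, and 1028, 2852 and 3318 with a minimum mean of 100 reads, for KD-1, KD-2 and KD-2 against KD-1. Without the filter 3 envelope genes were past the fold in KD-1.

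For both knockdowns against control, the 1 gene called by edgeR was Mir6236, chosen for naming after its value was seen. The count was 0 with DESeq2 size factors, 0 with library totals, 2 with no filter, 2 by the Wald test of DESeq2 and 211 at an unadjusted p under 0.05. Leaving out KD-1 or KD-2 leaves no residual degree of freedom, and gives the fold changes of the remaining knockdown. Per kb the Lmna share was 26.9%, 19.5% and 53.0%, the Sun1 to Sun2 ratio 1.89, 2.91 and 1.03, and the Syne1 to Syne2 ratio 0.523, 0.404 and 0.674 in control, KD-1 and KD-2. No paired analysis was possible because each condition has 1 library.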

Other observations

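LINC genes known mostly from other cell types were also measured. Syne4, which encodes nesprin-4, had 262 scaled reads in control, 311 after KD-1 and 239 after KD-2. Its KD-2 value against control, -0.13 on the log2 scale, changed sign with library totals (0.03). Irag2, a KASH protein of lymphoid cells, had 860, 1167 and 588 scaled reads, and KD-2 was lower than KD-1 by more than 1.5-fold under all 4 scalings (log2 fold change -0.99). Spag4, a SUN protein of spermatids, was low, with 55.1, 44.3 and 78.3 scaled reads, and KD-2 was higher than KD-1 by more than 1.5-fold under all 4 scalings (log2 fold change 0.82). Its counting interval, 0.29 to 1.37, reached within the fold. These genes were chosen after their values were seen, and were measured in 1 library per condition.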
